A study of Homo sapiens with 12 samples.

Results

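The 9 mature miRNAs described here come from 7 hairpins that fill a short intron of a host gene, known as mirtrons or mirtron-like hairpins, and from mir-484. The intron members are hsa-miR-877-5p, hsa-miR-1224-5p, hsa-miR-1226-5p, hsa-miR-1226-3p, hsa-miR-1227-3p, hsa-miR-1228-5p, hsa-miR-1229-3p and hsa-miR-1236-3p, and the capped member is hsa-miR-484, all written below without the species prefix. They were taken by name from a table of read counts with 1286 mature miRNA names, where all 9 were found, each on 1 line. The table covers 12 small RNA libraries of HCT116, a human colorectal carcinoma cell line, in which the DROSHA gene had been knocked out. Every library came from such knockout cells that had received 4.5 µg of the plasmid pXC-NLS-DG4. The 4 groups of 3 libraries differ in the pCK plasmid given with it. It was empty, or it coded for DROSHA in its wild-type form, in the mutant form m4 or with the belt deleted, and 4.5 µg of a DROSHA-coding plasmid was used. The labels name neither the residues changed in m4 nor the product of the DG4 plasmid, and they do not say whether the knockout line is 1 clone. Repeats are numbered without a statement that they were separate cultures, so p-values measure the spread between these samples, which may be technical.

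Most miRNAs are cut out of a long nuclear transcript by DROSHA with its partner DGCR8, and DICER then trims the hairpin to its mature arms. A mirtron takes another way in: the spliceosome cuts out a short intron, its lariat is opened, and the intron folds into a hairpin that DICER can use. The precursor of miR-484 is described as starting where its transcript starts and carrying the cap of that transcript. It also reaches DICER without a cut by DROSHA. The miR-320 precursor is made in the same capped way, and its reads serve here as the yardstick because no member contributes to them.

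The mature sequences are shown because a mirtron product is recognised by where it lies in the intron. Sequences and positions are from RefSeq on GRCh38.p14, which matched all 9 members, and are written 5′ to 3′ with the seed, bases 2 to 8, in capitals.
miR-877-5p: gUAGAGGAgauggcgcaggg
miR-1224-5p: gUGAGGACucgggaggugg
miR-1226-5p: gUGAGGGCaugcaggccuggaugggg
miR-1226-3p: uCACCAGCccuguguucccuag
miR-1227-3p: cGUGCCACccuuuuccccag
miR-1228-5p: gUGGGCGGgggcaggugugug
miR-1229-3p: cUCUCACCacugcccucccacag
miR-1236-3p: cCUCUUCCccuugucucuccag
miR-484: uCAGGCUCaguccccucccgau
No seed is shared between members. The miR-484 seed is found in 2 other RefSeq miRNAs, and neither is in the table. GC content ran from 59.1% to 76.2%, against a median of 54.5% (quartiles 45.5% and 63.6%) over the 1139 mature names of the table that have a RefSeq sequence.

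The hairpins are drawn out for the most abundant mirtron, for the mirtron with both arms among the members, and for mir-484, with the mature members in capitals.
mir-1224: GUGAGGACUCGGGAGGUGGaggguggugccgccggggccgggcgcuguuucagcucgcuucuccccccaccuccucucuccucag
mir-1226: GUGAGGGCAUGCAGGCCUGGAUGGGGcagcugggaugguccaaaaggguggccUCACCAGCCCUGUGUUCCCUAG
mir-484: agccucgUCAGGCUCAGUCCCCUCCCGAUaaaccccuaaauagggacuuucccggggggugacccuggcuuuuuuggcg
All 7 intron hairpins begin with GU and end with AG, the letters of the splice sites. Each 5p member begins at the first base of its hairpin and each 3p member ends at the last base, so miR-1226-5p and miR-1226-3p take up both ends of 1 intron. miR-484 differs, starting at base 8 of a hairpin that begins with AG and ends with CG.

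In the GENCODE release 29 annotation, the ends of the 7 hairpins are the ends of an intron. The mir-877 hairpin (chr6:30584332-30584417, plus strand) is an intron of ABCF1, a translation factor of the ATP-binding cassette group, in 3 of the 3 transcripts that span it. mir-1224 (chr3:184241405-184241489, plus) is an intron of VWA5B2 in 3 of 3, and mir-1226 (chr3:47849555-47849629, plus) one of DHX30, an RNA helicase, in 6 of 6. mir-1228 (chr12:57194504-57194576, plus) is an intron of the endocytic receptor LRP1 in 1 of 1. For mir-1227 (chr19:2234062-2234149, minus, PLEKHJ1) this holds in 9 of 11 transcripts, and for mir-1229 (chr5:179798278-179798346, minus, in the glycosyltransferase gene MGAT4B) in 9 of 10. mir-1236 (chr6:31956839-31956940, minus) is an intron of NELFE, a subunit of the negative elongation factor, in 12 of 13 transcripts. Its sequence is exonic in the remaining 1. mir-484 (chr16:15643294-15643372, plus) lies in an exon of a transcript of NDE1, a centrosome and dynein adaptor, 27 bases from the start of that transcript. This annotation thus does not place the hairpin at the transcript start itself. Of 770 hairpins of the table with a RefSeq position, 21 (2.73%) equal an annotated intron, and the 7 member hairpins hold 96.0% of the reads of these 21.

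After lines of the same reads were collapsed, the libraries held 101887 to 332081 reads, of which 31385 of 2730981 (12 libraries together) belonged to the members. The miR-320 family, meaning the summed reads of miR-320a-3p, b, c, d and e, took 77.9% to 82.4% of the reads of an empty-plasmid library, 27.9% to 47.0% in the wild-type libraries, 55.3% to 74.4% with m4 and 35.7% to 45.3% with the belt deletion. Per 1000 reads of this sum, miR-320a-3p averaged 597, 605, 599 and 598 for empty, wild type, m4 and belt deletion. The scarcer names varied more, with 9.46, 7.56, 8.34 and 11.2 for miR-320c and 0.555, 2.24, 3.54 and 3.47 for miR-320d. miR-320e varied most, from 1 to 530 reads in a library, or 0.0107 to 3.51 per 1000 reads of the sum. Whether all 5 names are made in the capped way was not tested. Of 8 miRNAs of intestinal epithelium, 7 were read in every wild-type library, with 126 to 209 reads of the list per library. Of 13 miRNAs of other cell types, 4 were read in every wild-type library and 6 in none, with 389 to 588 reads of that list, so the lists by themselves do not set the cell type apart. Levels below are reads per 1000 miR-320 reads. Each read is a whole small RNA, so no division by length was made, although differences between miRNAs in ligation still enter a comparison of levels.

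The members fell into an abundant and a scarce set. miR-1224-5p, miR-877-5p, miR-484 and miR-1226-5p held 37.3%, 28.0%, 23.0% and 8.12% of the member reads, or 96.5% together. In reads, miR-1224-5p stood above miR-484 in 12 of 12 libraries and above miR-877-5p in 9, while miR-877-5p stood above miR-484 in 10. The top neighbours are therefore not ordered in every library. miR-1226-5p was below these 3 and above each scarce member in all 12. Among the scarce members, miR-1226-3p was above miR-1229-3p in 9 libraries, miR-1229-3p above miR-1228-5p in 8 with 1 tie, and miR-1228-5p above miR-1227-3p in 7. miR-1236-3p was the lowest, below miR-1228-5p and miR-1227-3p in 12 of 12 libraries.

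**Figure D1:**
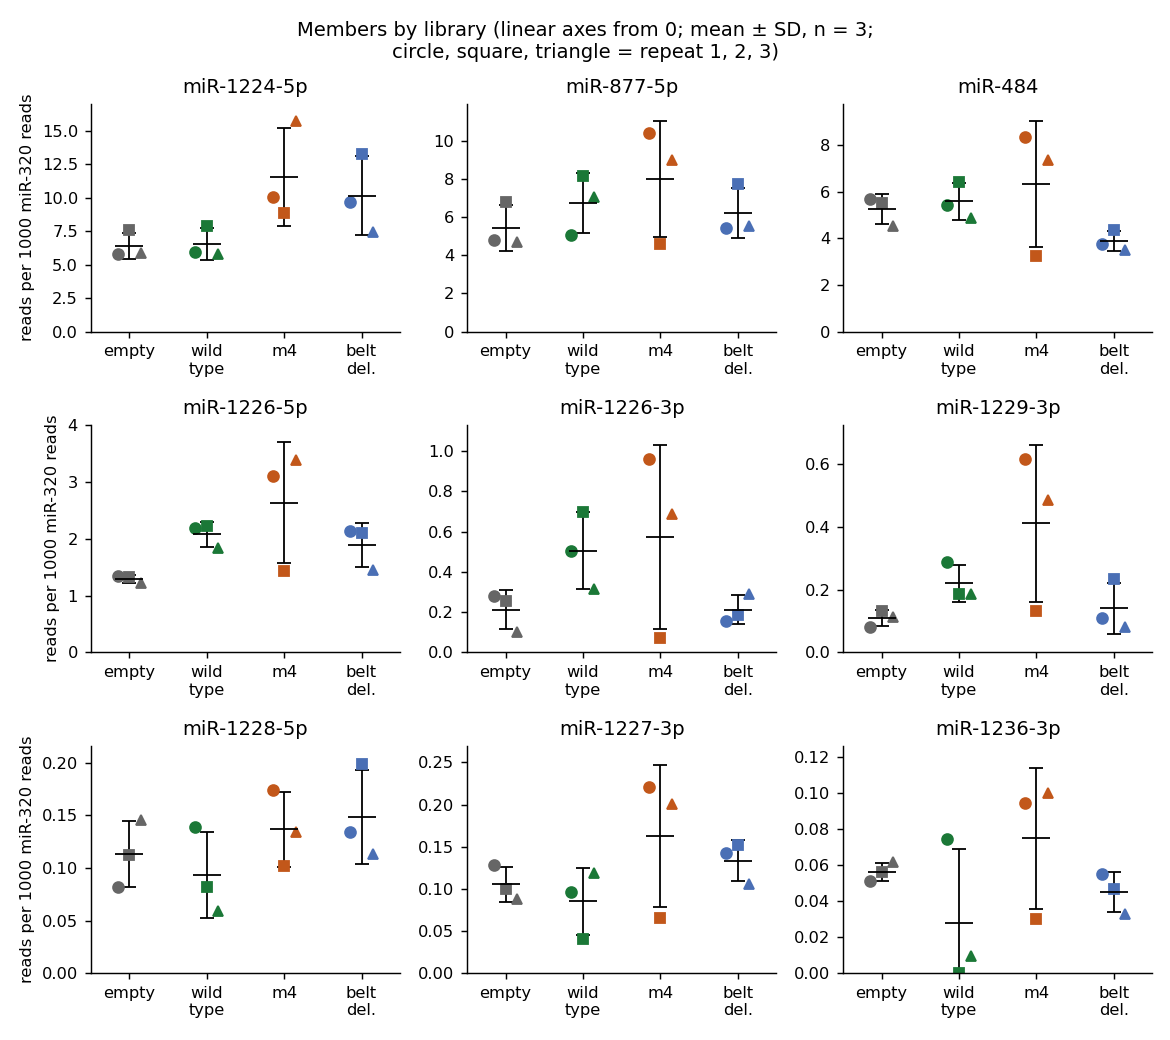
Level of each of the 9 members in reads per 1000 miR-320 reads (y axis, linear from 0, a scale of its own in each panel) in the 4 plasmid groups; points are libraries, bars the mean ± SD (n = 3). The second m4 library is the lowest of its group in every panel, and the belt-deletion libraries of miR-484 all lie below the empty ones.

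miR-1224-5p, from the VWA5B2 intron, had the highest mean level of the members in every group but wild type, where miR-877-5p was slightly higher. Its levels were 5.78, 7.54 and 5.86 per 1000 miR-320 reads in empty-plasmid repeats 1, 2 and 3, and 5.95, 7.89 and 5.79 in the wild-type libraries. With m4 they were 10.1, 8.82 and 15.7, and with the belt deletion 9.67, 13.3 and 7.45. All m4 libraries lay above all empty and wild-type ones, the empty and wild-type ranges nearly coincided, and the belt-deletion libraries overlapped them with the lowest of the 3. The means were 6.40 ± 0.996 (SD, n = 3), 6.55 ± 1.17, 11.5 ± 3.66 and 10.1 ± 2.94 for empty, wild type, m4 and belt deletion.

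miR-877-5p, from the ABCF1 intron, had levels of 4.79, 6.79 and 4.69 in the empty libraries and 5.07, 8.14 and 7.04 in the wild-type libraries. They were 10.4, 4.58 and 9.01 with m4 and 5.42, 7.72 and 5.53 with the belt deletion. Every pair of groups overlapped, and m4 held both the highest and the lowest library of all 12. The means were 5.42 ± 1.19 (SD, n = 3), 6.75 ± 1.56, 8.0 ± 3.04 and 6.23 ± 1.30 for empty, wild type, m4 and belt deletion.

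miR-484, the capped member, ran at 5.71, 5.53 and 4.54 in the empty libraries and at 5.44, 6.43 and 4.89 in the wild-type libraries. It ran at 8.35, 3.26 and 7.36 with m4 and at 3.77, 4.35 and 3.5 with the belt deletion. The belt-deletion libraries were all below the empty and wild-type ones, and the second m4 library was lower still. The means were 5.26 ± 0.628 (SD, n = 3), 5.59 ± 0.783, 6.33 ± 2.70 and 3.87 ± 0.434 for empty, wild type, m4 and belt deletion.

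miR-1226-5p, the start of the DHX30 intron, had levels of 1.34, 1.33 and 1.21 in the empty libraries. Levels were 2.18, 2.22 and 1.83 in the wild-type libraries, 3.09, 1.42 and 3.38 with m4, and 2.13, 2.09 and 1.44 with the belt deletion. Every library with a DROSHA plasmid lay above every empty one, though the second m4 library and the third belt-deletion library did so narrowly. The means were 1.30 ± 0.0695 (SD, n = 3), 2.08 ± 0.216, 2.63 ± 1.06 and 1.89 ± 0.388 for empty, wild type, m4 and belt deletion. At 26 nt its listed sequence is longer than the 19 to 24 nt that were taken from the gel, and whether this bears on its level was not tested.

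miR-1226-3p, the end of the same intron, was counted in 54, 41 and 23 reads in the empty libraries, 47, 34 and 32 in the wild-type libraries, 61, 12 and 41 with m4 and 20, 16 and 44 with the belt deletion. Per 1000 miR-320 reads this gives 0.278, 0.256 and 0.101, then 0.502, 0.699 and 0.316, then 0.963, 0.0721 and 0.686, and 0.158, 0.187 and 0.293 in the same order of groups. Wild type lay above the empty plasmid and above the belt deletion without overlap, and m4 spanned the whole range. The belt-deletion mean of 0.213 ± 0.0708 (SD, n = 3) was next to the empty mean of 0.212 ± 0.0964, with 0.506 ± 0.191 for wild type and 0.574 ± 0.456 for m4.

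miR-1229-3p, the end of the MGAT4B intron, was counted in 16, 21 and 26 reads in the empty libraries, 27, 9 and 19 in the wild-type libraries, 39, 22 and 29 with m4 and 14, 20 and 12 with the belt deletion. Its levels were 0.0824, 0.131 and 0.114 in the empty libraries, 0.289, 0.185 and 0.188 in the wild-type libraries, 0.616, 0.132 and 0.485 with m4, and 0.111, 0.234 and 0.0798 with the belt deletion. Wild type was above the empty plasmid in all libraries, and so was m4, whose second library, at 0.132, lay just over the highest empty one, at 0.131. The means were 0.109 ± 0.0248 (SD, n = 3), 0.220 ± 0.0590, 0.411 ± 0.250 and 0.141 ± 0.0814 for empty, wild type, m4 and belt deletion.

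The other scarce members did not separate the groups. miR-1228-5p, the start of the LRP1 intron, had 4 to 33 reads per library and group means from 0.0935 ± 0.0410 (SD, n = 3) with wild type to 0.149 ± 0.0446 with the belt deletion. miR-1227-3p had 2 to 25 reads and group means from 0.0853 ± 0.0398 in the wild-type libraries to 0.163 ± 0.0842 with m4. miR-1236-3p had 0 to 14 reads, with none in the second wild-type library, where a count of 0 allows up to 3 reads, and was left out of the tests by the filter on low counts. Its group means ran from 0.0282 ± 0.0406 (SD, n = 3) with wild type to 0.0751 ± 0.0391 with m4.

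For each DROSHA plasmid against the empty one, the question is whether the members keep their level when DROSHA is supplied. Whether each hairpin is made in the way described above for mirtrons or for miR-484, without DROSHA, was not tested. The comparisons share the empty libraries. Differences were tested with edgeR's quasi-likelihood test in 1 fit of all 12 libraries scaled by miR-320, with p-values adjusted by the Benjamini-Hochberg method over 310 miRNAs and a call at an adjusted p under 0.05. Of the 9 members, 8 passed the filter on low counts. Whether groups overlapped is given as description, and the share of all miRNAs without overlap was not taken. In bulk RNA, more of a miRNA per cell and more cells that hold it cannot be told apart.

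With wild type, 1 of the 8 tested members was called, miR-1226-3p, against 48.1% of all 310 miRNAs (47.7% called higher). It rose 2.36-fold, a log2 difference of 1.24 (SE 0.52, edgeR adjusted p = 0.0366). miR-1229-3p had a log2 difference of 1.02 (SE 0.54, edgeR adjusted p = 0.113) and miR-1226-5p one of 0.68 (SE 0.46, edgeR adjusted p = 0.248), both without overlap of the groups and without a call. The 3 most abundant members had small differences, 0.03 (SE 0.44) for miR-1224-5p, 0.09 (SE 0.43) for miR-484 and 0.31 (SE 0.44) for miR-877-5p. The median difference of the 8 members was 0.20, beside 1.28 over all 310. The miR-1226-3p call was lost without empty repeat 3 (log2 difference 0.90, edgeR adjusted p = 0.243), without wild-type repeat 1 (1.24, adjusted p = 0.0736) and without wild-type repeat 2 (0.95, adjusted p = 0.201), and its sign turned under trimmed-mean scaling (-0.10). Scaled by total counts, trimmed mean or DESeq2 size factors, 5, 6 and 4 members were called lower and none higher, against 21.3%, 31% and 16.8% of all miRNAs called lower in those scalings.

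Canonical miRNAs from the same fit give the contrast in size. miR-21-5p, an abundant miRNA of colorectal tumours, differed by 5.73 on the log2 scale with wild type, let-7i-5p by 6.53, miR-10a-5p by 6.92, miR-27b-3p by 5.62 and miR-30a-5p by 7.14, and all 5 were called. The largest member difference with wild type was 1.24, for miR-1226-3p. With m4 the gap was smaller. The largest member difference there was 1.86, for miR-1229-3p, and the 5 canonical miRNAs differed by 2.38 (let-7i-5p) to 4.18 (miR-10a-5p). With the belt deletion the largest was 0.66, for miR-1224-5p, beside 4.40 (miR-30a-5p) to 6.55 (miR-10a-5p).

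With m4, 3 of the 8 tested members were called, all higher, against 56.8% of all 310 miRNAs (56.5% called higher). miR-1229-3p rose 3.64-fold, a log2 difference of 1.86 (SE 0.53, edgeR adjusted p = 0.00154). miR-1226-3p rose 2.64-fold, by 1.40 (SE 0.52, adjusted p = 0.0165), with groups that overlapped because the second m4 library was the lowest of all 12. miR-1226-5p rose 2.03-fold, by 1.02 (SE 0.46, adjusted p = 0.0475). miR-1224-5p had a difference of 0.85 (SE 0.44, edgeR adjusted p = 0.0846), without a call although the groups did not overlap. DESeq2 with the same scaling called miR-1224-5p (0.85, DESeq2 adjusted p = 0.0339) and did not call miR-1226-3p (1.42, adjusted p = 0.0509). The median of the 8 members was 0.70, beside 1.48 over all 310. Under trimmed-mean scaling none of the 8 was called higher and 2 were called lower, miR-877-5p (-0.59, edgeR adjusted p = 0.0377) and miR-484 (-0.92, adjusted p = 0.000646), against 5.48% of all 310 called lower. DESeq2 with its size factors called miR-484 lower (-0.83, adjusted p = 0.00111), against 2.91% of the 309 miRNAs with an adjusted p.

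The m4 libraries differed most among themselves in summed member level, and several calls depended on them. The members together made up 34.0, 18.5 and 37.0 reads per 1000 miR-320 reads in m4 repeats 1, 2 and 3, and the second library also had the highest share of miR-320 reads in its group, 74.4% against 62.2% and 55.3%. Without m4 repeat 2, miR-1224-5p was called against the empty plasmid (1.01, edgeR adjusted p = 0.0200) and miR-1226-3p differed by 1.97. The miR-1226-3p call was lost without m4 repeat 1 (0.76, adjusted p = 0.285), m4 repeat 3 (1.22, adjusted p = 0.137) or empty repeat 3 (1.06, adjusted p = 0.132). In edgeR it was also lost by total counts (1.00, adjusted p = 0.205), trimmed-mean scaling (0.10, adjusted p = 0.929) or no count filter (1.40, adjusted p = 0.0530). DESeq2 with its size factors did not call it either (0.20, adjusted p = 0.831). The miR-1226-5p call was lost without any of the empty repeats or without m4 repeat 1 or 3 (0.80 to 1.04, edgeR adjusted p = 0.10 to 0.171), and it turned to -0.18 under trimmed-mean scaling and -0.08 with DESeq2 size factors. miR-1229-3p kept its call without each of the 6 libraries in turn (edgeR adjusted p from 1.8e-05 to 0.0387). It lost it under trimmed-mean scaling (0.62, adjusted p = 0.225) and with DESeq2 and its size factors (0.73, adjusted p = 0.234).

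With the belt deletion, 0 of the 8 tested members were called, against 45.5% of all 310 miRNAs. None had an unadjusted edgeR p under 0.05, and DESeq2 with the same scaling also called 0, against 45.6% of all. miR-484 had a difference of -0.44 (SE 0.44, edgeR adjusted p = 0.462), with groups that did not overlap. miR-1224-5p had one of 0.66 (adjusted p = 0.232), miR-1226-5p one of 0.54 (adjusted p = 0.369) and miR-1226-3p one of 0.02. The median of the 8 was 0.33, beside 1.09 over all 310. Scaled by total counts, trimmed mean or DESeq2 size factors, 2, 3 and 2 members were called lower, against 10.3%, 18.4% and 8.09% of all miRNAs.

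**Figure D2:**
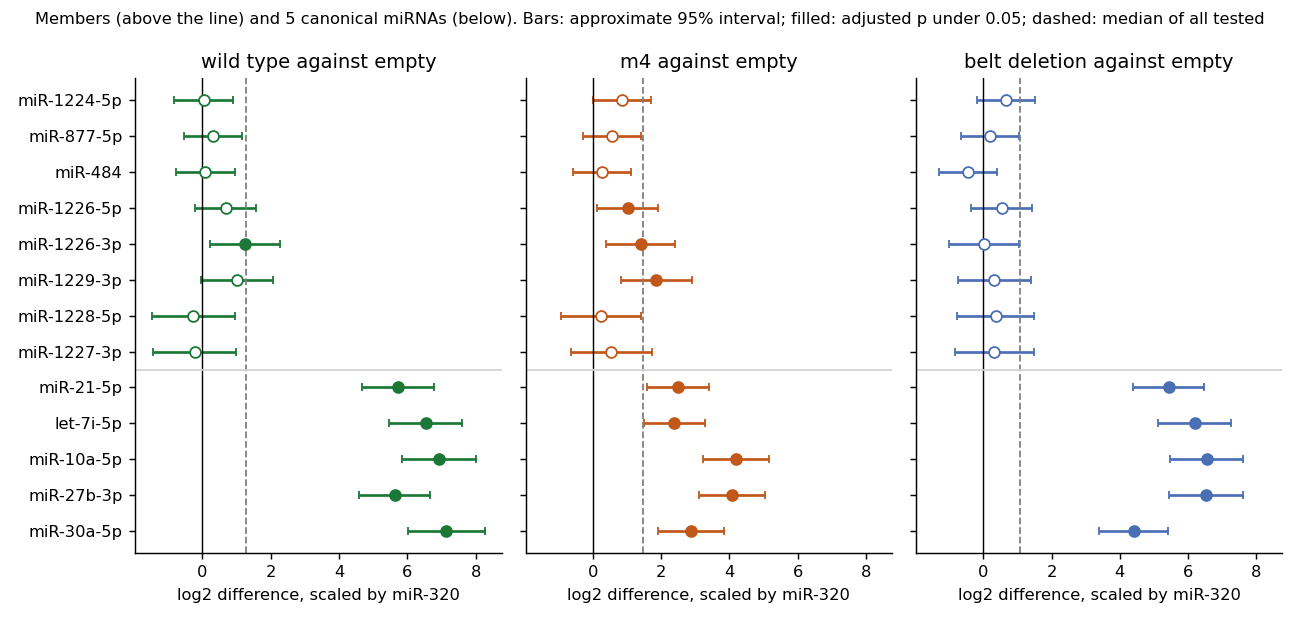
Log2 difference from the empty plasmid (x axis, scaled by miR-320) of the 8 tested members and 5 canonical miRNAs for wild type, m4 and belt deletion, from the edgeR fit; bars are approximate 95% intervals, filled points have an adjusted p under 0.05, and the dashed line is the median of the 310 miRNAs tested. Members lie between -0.44 and 1.86, and the canonical miRNAs between 2.38 and 7.14.

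Between each mutant and wild type, no member was called with miR-320 scaling. For m4 against wild type, edgeR called 0 of 8, against 33.5% of all 310, with 0 at an unadjusted p under 0.05 and 0 by DESeq2 with the same scaling, against 32.4% of all. miR-1224-5p was higher in each m4 library than in each wild-type library, with a difference of 0.82 (edgeR adjusted p = 0.141). Without m4 repeat 2 it was called (0.98, adjusted p = 0.0458), as was miR-1229-3p (1.30, adjusted p = 0.0315). Scaled by total counts, 7 of the 8 were called higher with m4, against 40.6% of all 310. By group means of log2 library size, this scaling raises m4 against wild type by 0.86 relative to miR-320 scaling. Fitted differences moved by other amounts, such as from 0.77 to 1.47 for miR-1227-3p. For the belt deletion against wild type, edgeR called 0 of 8, against 10.6% of all 310, with 1 at an unadjusted p under 0.05 and 0 by DESeq2 with the same scaling, against 10% of all. That member was miR-1226-3p, at -1.22 (SE 0.53, adjusted p = 0.153). miR-1229-3p was at -0.69 (adjusted p = 0.496), miR-1224-5p at 0.63 (adjusted p = 0.424) and miR-484 at -0.53 (adjusted p = 0.528). Groups did not overlap for miR-1226-3p and miR-484.

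Taking the 4 groups at once, 2 of the 8 members were called in the edgeR test with 3 degrees of freedom, against 53.9% of all 310 miRNAs. They were miR-1229-3p (adjusted p = 0.00396) and miR-1226-3p (adjusted p = 0.0121). Next came miR-1224-5p (adjusted p = 0.175) and miR-1226-5p (adjusted p = 0.242), and miR-1228-5p came last (adjusted p = 0.790). Without m4 repeat 1, 0 members were called and the adjusted p of miR-1229-3p was 0.108. Without m4 repeat 2, 4 were called, and without m4 repeat 3 or empty repeat 3, 1 was.

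The share of the members among all reads gives another picture from the same counts. They made up 1.42%, 1.73% and 1.38% of the reads with the empty plasmid, 0.650%, 0.717% and 0.951% in the wild-type libraries, 2.11%, 1.38% and 2.05% with m4, and 0.844%, 1.01% and 0.840% with the belt deletion. On this scale the wild-type and belt-deletion libraries lie below all empty ones. Per 1000 miR-320 reads they made up 18.2, 21.9 and 16.8 in the empty libraries, 19.7, 25.7 and 20.2 in the wild-type libraries, and 21.6, 28.3 and 18.6 with the belt deletion, and those groups overlap.

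**Figure D3:**
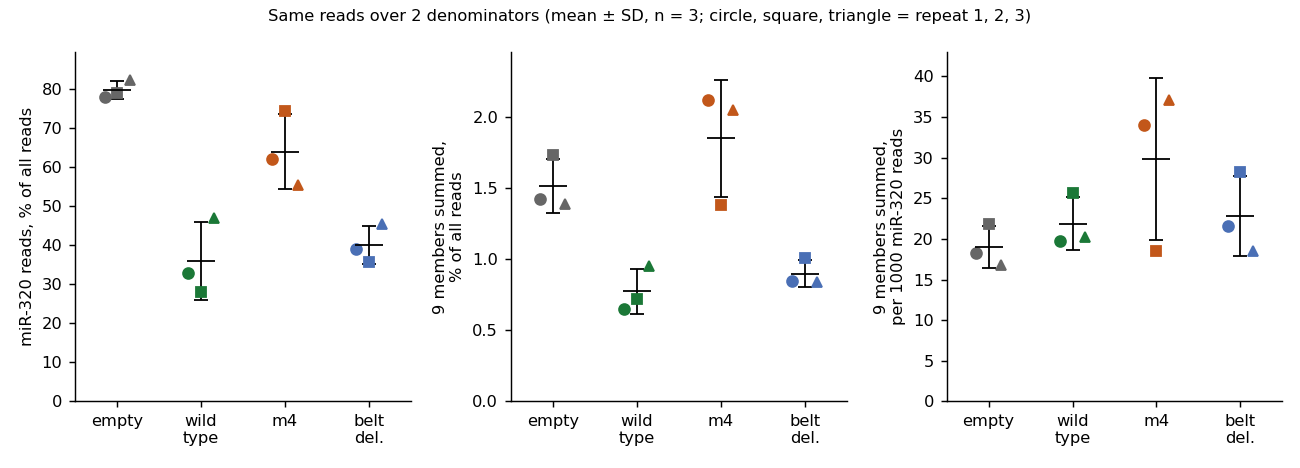
Share of miR-320 reads in all reads (left, %), share of the 9 members in all reads (middle, %), and the 9 members per 1000 miR-320 reads (right), by plasmid group; points are libraries, bars the mean ± SD (n = 3), axes from 0. The lower shares with wild type and belt deletion in the middle panel have no counterpart in the right panel, where the groups overlap.

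The choice of denominator sets the sign of several members. Scaled by total counts, the edgeR difference of wild type from empty was -1.15 for miR-1224-5p, -1.09 for miR-484 and -0.84 for miR-877-5p, against 0.03, 0.09 and 0.31 scaled by miR-320. Relative to miR-320 scaling, total counts shifted all differences from the empty plasmid by -1.18 in the wild-type libraries, -0.33 with m4 and -1.0 with the belt deletion. The trimmed-mean scaling shifted them by -1.32, -1.11 and -1.08, and DESeq2 size factors by -1.03, -1.0 and -0.88. Scaling by miR-484 shifted them by -0.09, -0.16 and 0.44.

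**Figure D4:**
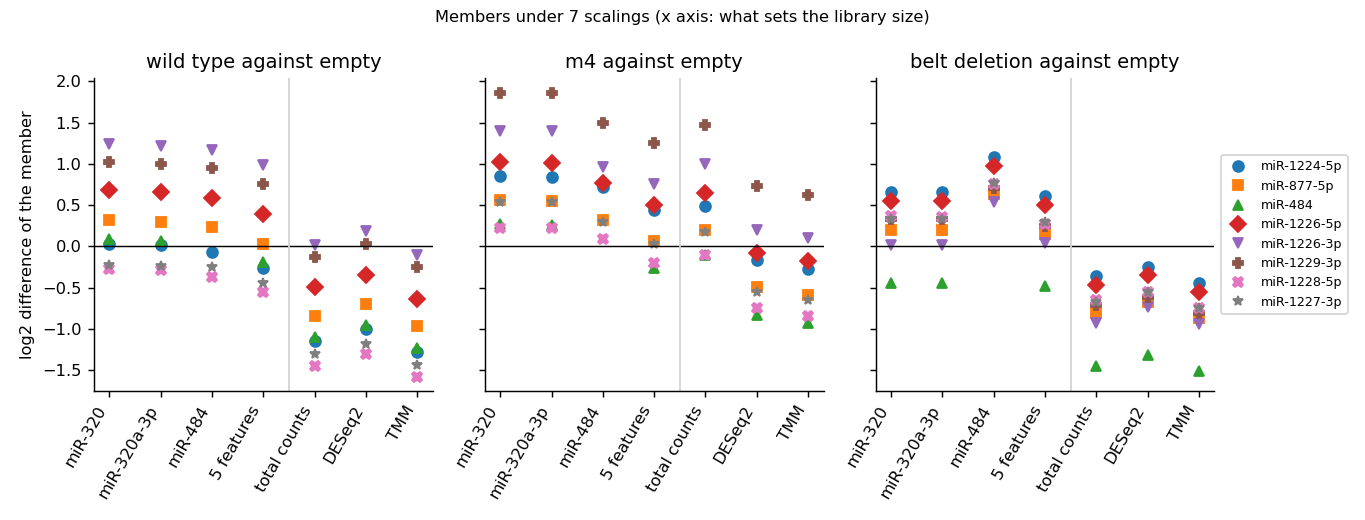
Log2 difference from the empty plasmid (y axis) of the 8 tested members for wild type, m4 and belt deletion under 7 choices of what sets the library size (x axis); to the left of the grey line are scalings by miR-320, by a member or by both, to the right scalings by all reads. miR-1224-5p with wild type goes from 0.03 scaled by miR-320 to -1.28 under trimmed-mean scaling.

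Ratios of 1 member to another need no scaling at all and were taken for the 4 members with at least 20 reads in every library. Over the 12 libraries the log2 ratios among these members and to miR-320 had SDs from 0.31 to 0.57. miR-1226-5p to miR-484 separated the groups most, in 4 of 6 pairs. The other ratios ran from 0 of 6 (miR-877-5p to miR-320) to 3 of 6 (miR-1226-5p to miR-320). No share over ratios of other miRNAs was taken, so these counts are description only. It was 0.235 to 0.268 in the empty libraries, 0.345 to 0.401 in the wild-type libraries, 0.371 to 0.459 with m4 and 0.413 to 0.566 with the belt deletion. All libraries with a DROSHA plasmid lay above all empty ones, and those with the belt deletion above those with wild type. In log2 the means were -2.02 ± 0.10 (SD, n = 3), -1.42 ± 0.11, -1.25 ± 0.16 and -1.05 ± 0.23 for empty, wild type, m4 and belt deletion.

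miR-1224-5p to miR-484 was higher with the belt deletion and in m4 repeats 2 and 3 than in any empty or wild-type library. The ratio was 1.01 to 1.37 in the empty libraries, 1.09 to 1.23 in the wild-type libraries, 1.21 to 2.70 with m4 and 2.13 to 3.05 with the belt deletion. m4 repeat 1 lay within the empty range, and the other m4 libraries within or at the edge of the belt-deletion range. Scaled by miR-484, edgeR gave miR-1224-5p a difference of 1.08 for the belt deletion against empty (adjusted p = 0.00130) and 1.14 against wild type (adjusted p = 0.00322), where scaling by miR-320 gave 0.66 and 0.63 without a call. It was also called with m4, at 0.72 against empty (adjusted p = 0.0361) and 0.78 against wild type (adjusted p = 0.0304). In the same scaling miR-1226-5p was called against empty both for the belt deletion, at 0.97 (edgeR adjusted p = 0.00494), and for m4, at 0.77 (adjusted p = 0.0303). The log2 ratio of miR-484 itself to miR-320 averaged -7.58, -7.49, -7.42 and -8.02 for empty, wild type, m4 and belt deletion.

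The ratio between the abundant mirtrons differed between groups as well. In log2, miR-877-5p to miR-1224-5p averaged -0.25, 0.03, -0.57 and -0.68 for empty, wild type, m4 and belt deletion. The belt-deletion libraries lay below all empty and all wild-type ones. miR-877-5p to miR-484 was 0.839 to 1.23 in the empty libraries, 0.931 to 1.44 in the wild-type libraries, 1.22 to 1.40 with m4 and 1.44 to 1.78 with the belt deletion. There the belt deletion lay above empty and m4 and narrowly overlapped wild type. miR-1224-5p to miR-1226-5p was 2.73 to 3.56 in the wild-type libraries, below the 4.32 to 5.67 of the empty plasmid and the 4.53 to 6.35 of the belt deletion.

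**Figure D5:**
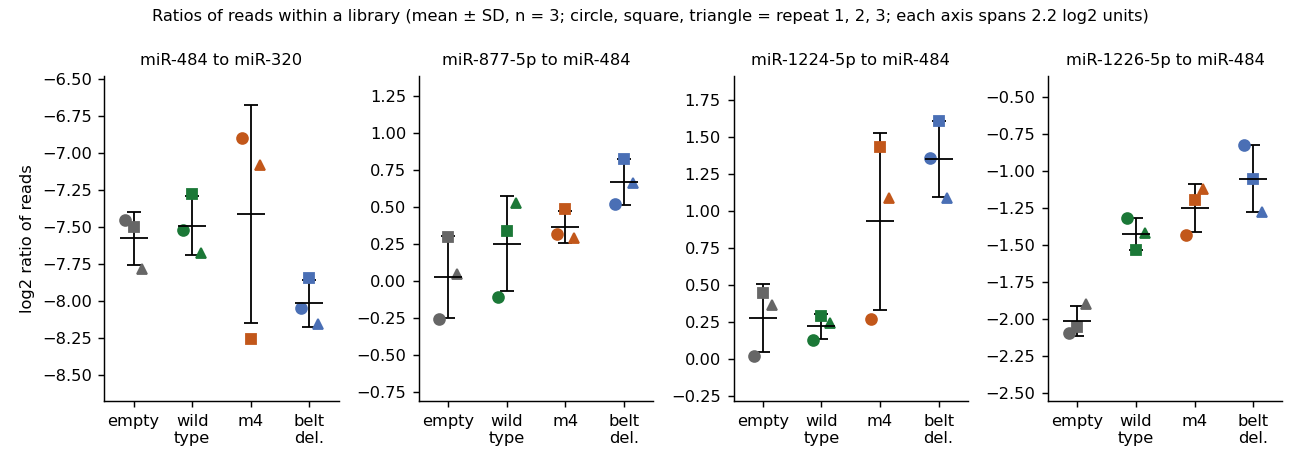
Log2 ratio of reads within a library (y axis, each panel spanning the same number of log2 units) for miR-484 to miR-320 and for miR-877-5p, miR-1224-5p and miR-1226-5p to miR-484, by plasmid group; points are libraries, bars the mean ± SD (n = 3). In the right panel all empty libraries lie below all others, and in the third panel the belt-deletion libraries lie above the empty and wild-type ones.

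Both arms of 1 hairpin can be compared without scaling as well. The mir-877 hairpin gave 8803 reads of the 5p and 207 of the 3p arm, and mir-1224 gave 11710 and 13. mir-1228 also favoured its 5p arm, with 177 reads to 25. mir-1229 favoured the 3p arm, with 254 reads to 21, and so did mir-1236, with 74 to 34, while mir-1227 had 168 reads of the 3p arm and 0 of the 5p arm. The more abundant arm was the listed member in each.

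For mir-877 the 5p share was 96.6% to 97.6% in the empty libraries, 96.6% to 98.2% in the wild-type libraries, 97.2% to 98.5% with m4 and 98.0% to 99.0% with the belt deletion, which lay above empty without overlap. This share was not tested.

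mir-1226, with both arms among the members, was the hairpin chosen for a test, which asked for at least 20 reads of both arms together in every library. Its 3p arm alone had as few as 12. Its 5p share was 82.8%, 83.9% and 92.3% in the empty libraries, 81.3%, 76.1% and 85.3% in the wild-type libraries, 76.3%, 95.2% and 83.1% with m4, and 93.1%, 91.8% and 83.1% with the belt deletion. The groups overlapped, and the libraries of a group differed beyond counting error: the Wilson 95% interval was 70.7% to 81.1% in the first m4 library and 91.8% to 97.2% in the second. These intervals cover counting error only. Group means were 86.3% ± 5.21 (SD, n = 3), 80.9% ± 4.61, 84.9% ± 9.58 and 89.3% ± 5.41 for empty, wild type, m4 and belt deletion. An exact permutation test over the 15400 partitions into 4 groups gave p = 0.509.

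Other miRNAs followed the members over the 12 libraries. By the SD of the log2 ratio to the summed members, among the 110 others that averaged 50 reads or more, the most alike were miR-1292-5p (0.21), miR-6511a-5p (0.23), miR-10399-3p (0.26), miR-6511b-5p (0.28) and miR-4741 (0.29). The ratio of miR-1292-5p to the members averaged 0.214, 0.240, 0.210 and 0.243 for empty, wild type, m4 and belt deletion. That of miR-10399-3p averaged 0.291, 0.279, 0.385 and 0.312 in the same order. Scaled by miR-320, miR-10399-3p was called higher with m4 than with the empty plasmid (1.09, edgeR adjusted p = 0.0267). The others of these most alike miRNAs were not called in that comparison. The median SD over the 110 was 1.5, miR-320a-3p was at place 21 with 0.37, and let-7i-5p at place 109 with 2.83. miR-6511a-5p and miR-6511b-5p are near-identical and may share reads, and the points of each SD share library and depth.

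Other hairpins described as mirtrons were read at low counts. Of the 8 arms of mir-1225, mir-1233, mir-1237 and mir-1238, none had more than 36 reads over the 12 libraries. That count was of miR-1237-3p, which had 6, 6 and 3 reads in the empty libraries, 4, 3 and 2 in the wild-type libraries, 2, 0 and 2 with m4, and 1, 3 and 4 with the belt deletion. Among all hairpins that equal an intron, the 14 outside the members held 1030 reads. The 6 reads of mir-1233 enter this sum through both MIR1233-1 and MIR1233-2. Most of the reads came from MIR3620 with 458 and MIR6807 with 292. Each of these had reads in all 12 libraries and more of them than the mir-1229 (275), mir-1228 (202), mir-1227 (168) or mir-1236 (108) hairpin.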

How the data were processed

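The members and lists were chosen with earlier results of these data known. The authors deposited raw counts of reads, 1 line for each mature arm of a hairpin, for the 12 libraries; they are whole numbers that show no normalisation. RNA of 19 to 24 nt was size-selected per the labels' protocols. cutadapt, Bowtie2 and hg38 were used, per the submitters' processing notes, without versions. The counter, the annotation and the handling of reads that fit several hairpins are not given in the sources used here. miR-320b ran close to a fixed proportion of miR-320a-3p in every library, so their sum may hold shared reads.

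Blank cells were read as 0. Where a mature name had several lines, the one with most reads was kept. Another 9 pairs of names held equal reads (within 5 reads or 5% in each library, over 120 in total) and were merged, which left 1277 names. Library sizes for the test were the summed miR-320 reads, and the miR-320 names were not tested. edgeR 4.0.16 (R 4.3.3) was fitted with robust quasi-likelihood on the features kept by filterByExpr. SE is the log2 difference divided by the square root of F. The scripts were tested on simulated data. All 9 members are named. Other named miRNAs are the 5 most alike, the second arms, the miR-320 names, 5 canonical miRNAs and listed mirtrons. Alternatives were other scalings, DESeq2 1.42.0, no count filter, sums over hairpin lines, a replicate block and each library left out.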

Additional observations from a re-analysis of the deposited data

How the results depend on the processing

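The scarce members limit the precision, since miR-1236-3p was at 0 to 14 reads and miR-1227-3p at 2 to 25. The counts below follow the member calls from setting to setting. Where no share over all miRNAs is given above for a setting, a change in the member count cannot be told from a change in all calls. Members called among the 4 groups were 2 as reported and 4 scaled by miR-484. They were 1 by 5 features taken as DROSHA-independent, 7 by total counts, 7 by trimmed mean (TMM) and 1 by DESeq2 on miR-320 scaling. The 5 features are miR-320, miR-484, miR-877-5p, miR-1224-5p and miR-1226-3p, so that these members are scaled partly by themselves. Their independence of DROSHA is presumed, and miR-1226-3p was itself called higher with wild type and with m4. In the set named the other DROSHA-independent features, a member is left out of its own scaling. Members outside the 5 features have the same fit in both sets. For wild type against empty, 1 as reported became 5 by total counts, 6 by TMM and 4 by DESeq2 size factors, all lower. It became 0 with DESeq2 on miR-320 scaling, no count filter, summed hairpin lines or scaling by the other DROSHA-independent features. For m4 against empty, 3 became 1 with either set of DROSHA-independent features, total counts, DESeq2 size factors (there lower) or no filter, and 2 by TMM, both lower. The call with either set was miR-1229-3p, from the same fit. For belt deletion against empty, 0 became 2 higher by miR-484, 2 lower by total counts or DESeq2 size factors and 3 lower by TMM. For m4 against wild type, 0 became 7 by total counts and 1 by miR-484, TMM or DESeq2 size factors. For belt deletion against wild type, 0 became 1 by those 4 scalings and by the other DROSHA-independent features. With each library left out in turn, the counts were 0 to 4 among the 4 groups, 0 to 1 and 1 to 4 for wild type and m4 against empty, and 0 to 2 for m4 against wild type, and 0 for both belt-deletion comparisons. The mir-1226 5p share averaged 85.3% and stayed within 84.5% to 86.2%.

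Of 40 log2 differences (8 members in 5 comparisons), 8 had the other sign by the 5 features, 10 by the other DROSHA-independent features, 16 by total counts, 21 by TMM and 19 by DESeq2 size factors, and 4 of 35 by miR-484. Among those against empty, the ones called in either fit follow. With wild type, by total counts, TMM and DESeq2 size factors, miR-877-5p was at -0.84, -0.96 and -0.69, miR-1224-5p at -1.15, -1.28 and -1.0, and miR-484 at -1.09, -1.23 and -0.95, and by TMM miR-1226-3p was at -0.10 and miR-1226-5p at -0.63. With m4, TMM gave miR-877-5p -0.59, miR-1226-5p -0.18 and miR-484 -0.92, and DESeq2 size factors gave miR-1226-5p -0.080 and miR-484 -0.83. With the belt deletion, total counts, TMM and DESeq2 size factors gave miR-877-5p -0.81, -0.87 and -0.67, and TMM gave miR-1226-5p -0.55.

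Same-numbered repeats did not vary together (correlations of deviations from -0.25 to 0.11, 1 of 18 pairs above 0.1, and 1 of 12 libraries closest to its own number). With the replicate block, m4 against empty had 2 calls in place of 3, miR-1226-5p being at 1.0 (edgeR adjusted p = 0.0885), and no other member call changed.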
